A study of Rattus norvegicus with 40 samples.

Results

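The nuclear-encoded subunits of the mitochondrial respiratory chain and of ATP synthase were followed in RNA sequencing of rat brain 12 months after blast or sham exposure. Members were the protein-coding genes whose names in the hippocampus table begin with Ndufa, Ndufb, Ndufc, Ndufs or Ndufv and a number, with Sdha to Sdhd, Uqcr, Cox4 to Cox8 or Atp5. The rule used names only and found 86 of 25958 gene identifiers. They were 38 of complex I, 4 of complex II, 9 of complex III, 18 of complex IV and 17 of ATP synthase. The 86 identifiers carry 82 names, because Cox6b1, Uqcrb, Ndufv3 and Ndufa10l1 each stand for 2 identifiers, which are told apart below by identifier where a value is given. Among them Ndufv3 (ENSRNOG00000027593) and Ndufa10l1 (ENSRNOG00000062245) have models with no intron and are counted under complex I. This Ndufv3 carries the name Ndufv3-ps1 in the cerebellum data, so its standing as a subunit gene is uncertain. The study sampled hippocampus, amygdala, anterior cortex and cerebellum, each with 5 blast and 5 sham libraries, 40 in all. Strain, sex, age and the strength of the blast are not given in the labels. The titles join a region and a number, with Hip_4, Hip_8, Hip_22, Hip_88 and Hip_666 for blast hippocampus and numbers 11, 13, 14, 15 and 33 for sham. Whether a number stands for an animal is not stated, so the p-values describe the spread of these libraries, which may be technical. In the amygdala 1 sham library has a column and a title with different numbers and is called the unnumbered library.

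Complexes I to IV pass electrons from NADH and succinate to oxygen and pump protons out of the mitochondrial matrix, except complex II, which pumps none. ATP synthase lets the protons back and makes ATP, most of which a neuron spends on ion pumps and synaptic transmission. A few subunits of complexes I, III, IV and ATP synthase are encoded in mitochondrial DNA, and all others, like every subunit of complex II, are made from the nuclear genes described here and imported. Some subunits have isoforms that are bound to a tissue, such as the heart and muscle forms of complex IV.

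Library totals ran from 11268097 to 37128383 counts, and the members took from 0.417% of them in sham library 15 of the anterior cortex to 1.25% in sham library 14 of the hippocampus. Cerebellar granule and Purkinje cell markers summed to 8061 to 8892 CPM (counts scaled to a common library size with TMM) in cerebellum libraries and were at most 1338 CPM in the other regions. Of the members, 82 passed the filter on low counts in at least 1 region. In no region tested were Cox7a1, Cox7b2, Cox8b and Ndufa10l1 (ENSRNOG00000062245). Tested members numbered 80 in the hippocampus, 82 in the amygdala, 81 in the anterior cortex and 79 in the cerebellum. They were short, with a median length of 693.5 to 705 bases between regions against 2339.5 to 2362 bases over all genes tested.

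No member was called for blast against sham in any region by edgeR at an adjusted p under 0.05, nor was any other gene in these tests (0% of 15059 genes in the hippocampus, of 15280 in the amygdala, of 14918 in the anterior cortex and of 14769 in the cerebellum). The smallest adjusted p of a member by edgeR was 0.998 in the hippocampus, 0.459 in the amygdala, 0.799 in the anterior cortex and 0.96 in the cerebellum. Members shared their direction within a region all the same, as the plot of fold changes by complex shows. In the amygdala 75 of 82 were higher after blast, at a median log2 fold change of 0.14, and in the anterior cortex 79 of 81 with a median of 0.30. In the hippocampus 70 of 80 were lower with a median of -0.11, and in the cerebellum 57 of 79 were higher with a median of 0.03. Of all genes tested, 49.7%, 50%, 49.0% and 51.1% were higher in blast in these 4 regions in the same order. The medians over all genes lay within 0.004 of 0. In bulk tissue fewer cells of a type and less RNA per cell cannot be told apart. Of the 79 members tested in all regions 8 were higher in 4 regions, 45 in 3, 24 in 2 and 2 in 1, and 51 were higher in the amygdala, anterior cortex and cerebellum.

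**Figure D1:**
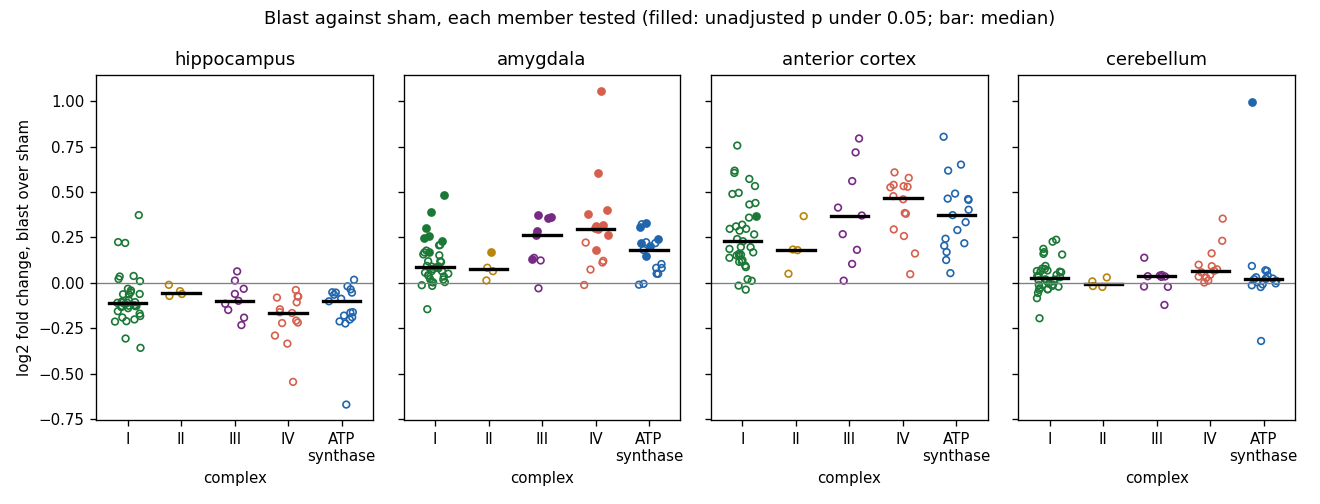
Log2 fold change of blast over sham for each member tested, by complex and brain region (n = 5 libraries a group). Filled points have an unadjusted p under 0.05 by edgeR, which none has in the hippocampus, 30 have in the amygdala and 1 has in each of the other regions, and bars are medians by complex.

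In the amygdala 30 of 82 members, or 36.6%, had an unadjusted p under 0.05 by edgeR, all higher in blast, against 4.22% of all genes tested that were higher at this threshold and 4.45% that were lower (8.67% in all). In 5 members all blast libraries lay above all sham libraries, against 0.785% of all genes. Complex IV, whose oxidase passes the electrons to oxygen, had 10 of 15 members at this threshold and a median log2 fold change of 0.29. Complex III, which hands electrons from ubiquinol to cytochrome c, had 6 of 9 and a median of 0.26. ATP synthase had 6 of 17 with a median of 0.18, complex I 7 of 37 with a median of 0.09, and complex II 1 of 4 with a median of 0.07. Complex II was represented at this threshold by Sdhd, 1 of its 2 membrane anchors, at 0.17 ± 0.08 (SE).

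Ndufc2, an accessory subunit in the membrane arm of complex I, had the smallest p of the members. It stood at 55.3, 63.7, 53.7, 54.6 and 51.4 CPM in blast libraries 4, 8, 22, 88 and Amy_666, and at 50.7, 37.5, 45.9, 38.4 and 40.3 CPM in sham libraries 11, 14, 15, 33 and the unnumbered one. Its log2 fold change was 0.39 ± 0.09 (SE; edgeR adjusted p = 0.459). The lowest blast library lay just above the highest sham library, 11, so the groups touched without overlapping. DESeq2 gave Ndufc2 an adjusted p of 0.0489, the 1 call of a member by that tool in the amygdala. In the DESeq2 fit 4.40% of all genes were higher and 4.69% lower at an unadjusted p under 0.05. The share of all genes that DESeq2 called is not given here, so the call was not compared with it. The tables place Ndufc2 (ENSRNOG00000012383) on chromosome 1 from 162369801 to 162376023.

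Cox7b, a small accessory subunit of cytochrome c oxidase, stood at 67.7, 74.4, 64.0, 59.2 and 65.3 CPM in the same blast libraries and at 56.8, 39.8, 55.7, 48.4 and 53.3 CPM in the sham libraries in the order above. Its log2 fold change was 0.38 ± 0.09 (edgeR adjusted p = 0.459). Again no sham library reached the lowest blast library, here 88, and sham library 14 stood lowest. Cox7b (ENSRNOG00000054689) lies on chromosome X from 77065397 to 77071676 in the tables.

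Ndufa3 and Ndufa11 are accessory subunits of complex I as well. Ndufa3 stood at 31.7, 37.5, 29.3, 27.2 and 29.1 CPM in blast and at 25.96, 18.6, 23.9, 15.95 and 26.2 CPM in sham, a log2 fold change of 0.49 ± 0.13 (edgeR adjusted p = 0.459). Ndufa11 stood at 64.8, 67.8, 60.7, 61.0 and 59.3 CPM in blast and at 59.0, 52.0, 52.0, 54.6 and 49.8 CPM in sham, a log2 fold change of 0.23 ± 0.06 with the same adjusted p by edgeR. In both genes the blast libraries lay above the sham libraries without overlap, narrowly in Ndufa11. The fifth member without overlap was Cox6b1 (ENSRNOG00000034161), at 0.40 ± 0.13 and 7.07 to 13.7 CPM over the 10 libraries. Its model on chromosome 2 spans 261 bases with a gene length of 261 bases and so has no intron, and reads of the other Cox6b1 (ENSRNOG00000024309, 0.29 ± 0.10) may be shared with it. The value of that member is uncertain for this reason.

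Among members whose groups overlapped, Uqcr10, a small accessory subunit of complex III, stood at 42.3 to 54.5 CPM in blast and 28.9 to 44.2 CPM in sham (0.36 ± 0.11). Ndufa4, grouped here by its name with complex I and now assigned to complex IV, stood at 132 to 155 CPM in blast and 88.9 to 141 CPM in sham (0.30 ± 0.10). Cox5a, a nuclear subunit of the oxidase on its matrix side, stood at 95.9 to 126 CPM in blast and 77.4 to 100.2 CPM in sham (0.26 ± 0.09). In each of these 3 members sham library 11 reached into the blast range and blast library 8 stood highest. The 3 core subunits of complex III had a median of 0.13. The F1 head and central stalk of ATP synthase, Atp5f1a to Atp5f1e, had a median of 0.08 with 2 of 5 members under an unadjusted p of 0.05, and the 3 genes of its membrane c-ring a median of 0.24 with 2 of 3. The 7 nuclear core subunits of complex I were all higher, with a median of 0.08 against 0.09 in the 30 others tested.

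**Figure D2:**
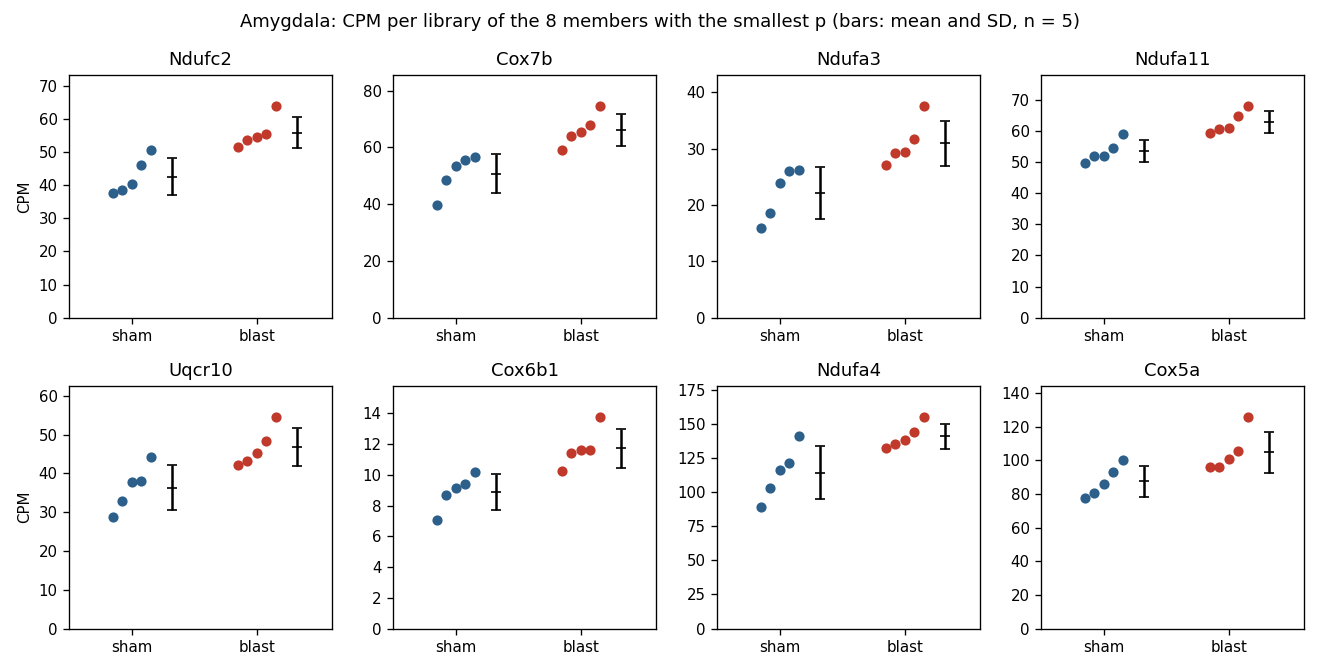
CPM of each amygdala library for the 8 members with the smallest p, sham and blast side by side, with mean and SD (n = 5); axes start at 0. In Ndufc2, Cox7b, Ndufa3, Ndufa11 and Cox6b1 (ENSRNOG00000034161) the blast points lie above all sham points, and in Uqcr10, Ndufa4 and Cox5a the highest sham point reaches the blast range.

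The upstream sequences of Ndufc2, Cox7b and Ndufa11, 3 of the 5 members whose amygdala groups did not overlap, are shown so that promoters of members that were higher together can be compared. They are the 250 bases before the annotated start in RefSeq on GRCr8, read 5′ to 3′ on the coding strand, and capitals mark matches to the NRF1 motif, spelled GCGC, any base, TGCGC. NRF1 is a transcription factor that is known to act on many nuclear genes of the respiratory chain. Ndufc2 and Cox7b were taken for the smallest p in the amygdala. Ndufa11 was picked as the member of smallest amygdala p whose promoter holds the NRF1 motif, and Ndufa3, of smaller p, was passed over. The match in Ndufa11 is thus a result of that choice. Ndufc2 is taken from chr1:161122940-161123189 (plus strand), Cox7b from chrX:75148786-75149035 (plus strand) and Ndufa11 from chr9:1637364-1637613 (plus strand).
Ndufc2: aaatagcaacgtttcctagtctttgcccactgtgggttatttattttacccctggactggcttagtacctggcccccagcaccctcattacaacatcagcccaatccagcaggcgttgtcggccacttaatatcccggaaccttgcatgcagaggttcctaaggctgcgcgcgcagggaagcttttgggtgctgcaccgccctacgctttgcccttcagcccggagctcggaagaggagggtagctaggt
Cox7b: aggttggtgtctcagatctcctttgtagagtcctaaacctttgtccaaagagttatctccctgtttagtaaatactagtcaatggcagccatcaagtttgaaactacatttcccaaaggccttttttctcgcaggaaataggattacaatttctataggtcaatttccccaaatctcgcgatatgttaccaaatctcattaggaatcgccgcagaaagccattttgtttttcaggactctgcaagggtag
Ndufa11: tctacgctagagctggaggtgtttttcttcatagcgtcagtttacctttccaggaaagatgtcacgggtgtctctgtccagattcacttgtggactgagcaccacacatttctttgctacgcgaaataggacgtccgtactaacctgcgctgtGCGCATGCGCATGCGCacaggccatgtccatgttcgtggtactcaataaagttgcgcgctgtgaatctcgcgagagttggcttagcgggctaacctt
Ndufa11 held 2 overlapping matches, which begin 97 and 91 bases before the start, and the windows of Ndufc2, Cox7b and Ndufa3 held none of the 4 motifs searched. A match is a description of letters and not a measured site.

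Promoter windows of 300 bases (250 before to 50 after the start, RefSeq, GRCr8) were found for 68 of the 86 members. All were matched by gene symbol on the chromosome the tables give. On either strand the NRF1 motif was in 12 of them (17.6%) against 4.25% of 33469 windows of all genes. The motif CCGGAAG of GABPA and other ETS factors was in 19 (27.9%) against 8.75%, the YY1 motif AAGATGGCG in 9 (13.2%) against 1.73%, and the motif TCAAGGTCA of the receptor ERRA in 2 (2.9%) against 0.43%. By complex the NRF1 motif was in 5 of 15 windows of ATP synthase, 5 of 31 of complex I, 1 of 4 of complex II, 1 of 6 of complex III and 0 of 12 of complex IV. The ETS motif was in 4, 7, 2, 3 and 3 of the same windows. Sdha held the NRF1 motif 3 times, and Ndufa1, Ndufa13, Sdhd, Uqcrc2, Cox4i1 and Cox8a held the ETS motif 2 times each. These shares are descriptions with no test. The windows of all genes were neither limited to the genes tested here nor matched to the members in base composition.

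Other mitochondrial genes in the blast amygdala went in both directions. Of 13 genes encoded in mitochondrial DNA 11 were lower, with a median of -0.12, and Mt-atp8 of ATP synthase (-0.30 ± 0.10) and Mt-nd6 of complex I (-0.25 ± 0.10) had an unadjusted p under 0.05 by edgeR. Of 73 mitochondrial ribosomal protein genes 66 were higher with a median of 0.12, 14 of them under this threshold and 1 lower gene too. Proteasome subunits, a group with no part in respiration, were higher in 26 of 38 cases with a median of 0.06, and cytosolic ribosomal proteins in 32 of 82 with a median of -0.04. Assembly factors had medians of 0.08 for complex I (11 of 16 higher), 0.20 for complex II (3 of 3), 0.10 for complex III (5 of 6), 0.04 for complex IV (11 of 18) and 0.12 for ATP synthase (4 of 4). At an unadjusted p under 0.05 by edgeR were Sdhaf4 of complex II (0.29 ± 0.13), Fmc1 of ATP synthase (0.44 ± 0.20) and, with opposite signs, Coa3 (0.21 ± 0.08) and Coa5 (-0.16 ± 0.07) of complex IV. Of 14 genes of the tricarboxylic acid cycle and pyruvate dehydrogenase 11 were higher, with a median of 0.05, 4 of them at an unadjusted p under 0.05, led by Pdhb (0.25 ± 0.07).

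The score of a library, the mean log2 CPM of the members centred within the region, was 0.02, 0.09, 0.07, 0.32 and -0.05 in amygdala blast libraries 22, 4, Amy_666, 8 and 88. In sham it was 0.10 in library 11, -0.12 in the unnumbered one, -0.17 in 14, -0.07 in 15 and -0.20 in 33. Sham library 11 thus lay above 4 of the 5 blast libraries, and blast library 88 below sham library 11 only. Without blast library 8 the count under an unadjusted p of 0.05 by edgeR was 15 in place of 30 and the median 0.09, and 2.98% of all genes were higher at this threshold in that fit. Choroid plexus markers were lower in blast in 13 of 13 cases (summed 38.3 to 499 CPM in blast, 17.8 to 519.7 CPM in sham, none of the 13 at 0) and pericyte and mural markers in 12 of 14 (307 to 404 CPM in blast, 322 to 515 CPM in sham). Oligodendrocyte markers were lower in 11 of 12 cases, 3 of them at an unadjusted p under 0.05 by edgeR (3825 to 4303 CPM in blast, 4035 to 5154 CPM in sham). Astrocyte markers were lower in 10 of 12, 2 of them at that threshold (5802 to 7603 CPM in blast, 6012 to 8161 CPM in sham). Fibroblast and meningeal markers were higher in 12 of 14, 1 at that threshold (1517 to 3160 CPM in blast, 1265 to 2547 CPM in sham). The part of these markers in the result was not tested.

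**Figure D3:**
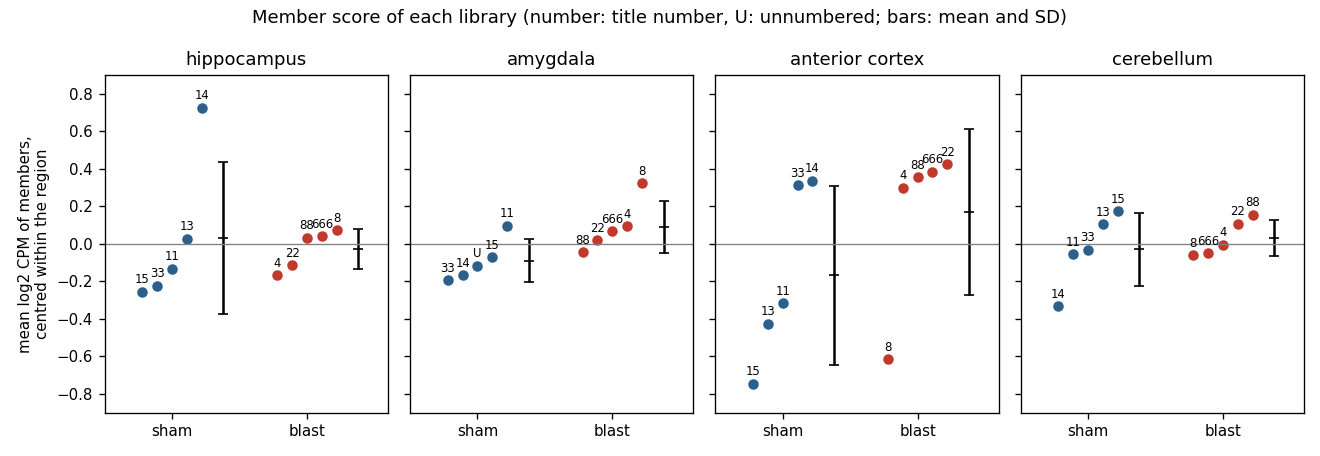
Member score of each library, the mean log2 CPM of the members centred within the region, for sham and blast in each region, with mean and SD (n = 5). Sham library 14 stands at 0.73 in the hippocampus, and blast library 8 and sham libraries 11, 13 and 15 stand between -0.75 and -0.32 in the anterior cortex.

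In the hippocampus the direction of the members rested on 1 library. The member score was 0.73 in sham library 14 and from -0.26 to 0.03 in the 4 other sham libraries, against -0.17 to 0.07 in blast. Without sham library 14 the median log2 fold change was 0.10 in place of -0.11, and 76 members were higher in place of 10. Of these 7 had an unadjusted p under 0.05 by edgeR, where the comparison of all 10 libraries had 0 members at that threshold (1.89% of all genes, 0.970% higher and 0.916% lower). Without that library 2.02% of all genes were higher at the threshold. All complexes turned with that library, from -0.16 to 0.14 in complex IV, from -0.11 to 0.09 in complex I, from -0.10 to 0.13 in ATP synthase, from -0.10 to 0.14 in complex III and from -0.05 to 0.08 in complex II.

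Cox7a2l2, which the cerebellum table names Cox7a2 and which codes for a subunit of the oxidase, shows the pattern. It stood at 56.5, 54.6, 56.5, 67.9 and 60.2 CPM in blast libraries 4, 8, 22, 88 and Hip_666, and at 54.6, 67.4, 145, 44.9 and 60.4 CPM in sham libraries 11, 13, 14, 15 and 33. Its log2 fold change of -0.33 ± 0.27 (edgeR adjusted p = 0.998) rests on sham library 14, and the 4 other sham libraries lay around the blast values. Ndufc1, an accessory subunit of complex I, had the smallest p in this region, at -0.36 ± 0.20, with 20.2 to 22.9 CPM in blast and 18.3 to 44.6 CPM in sham. Without sham library 14 it stood at -0.11. Atp5if1, the inhibitor that stops ATP synthase from running backwards, stood at 70.9 to 80.4 CPM in blast and at 144 CPM in sham library 14, with 67.2 to 79.8 CPM in the other sham libraries. Ndufa6 of complex I (-0.21 ± 0.19), Ndufa3 (-0.31 ± 0.27), Cox7b (-0.22 ± 0.21), Cox4i2 (-0.55 ± 0.36) and Atp5pb of the peripheral stalk (-0.67 ± 0.51) were the other members of smallest p.

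Sham library 14 of the hippocampus differed in short genes of other kinds too. Its slope of log2 CPM on log2 gene length over all genes was -0.15, against -0.02 to 0.05 in the other 9 hippocampus libraries. Proteasome subunits were lower in blast in 34 of 37 cases with a median of -0.11, and mitochondrial ribosomal proteins in 64 of 73 with a median of -0.11. The 13 genes of mitochondrial DNA were not lower, with a median of 0.10. Choroid plexus markers were high in blast libraries 8 and Hip_666 and sham library 11, and without these 3 libraries the member median was -0.21, with 3 members higher. Cox8b, the heart and muscle form of subunit VIII, which had too few counts to be tested, stood at 5.36, 7.92 and 3.47 CPM in these 3 libraries and at 0 to 0.59 CPM in the other 7.

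In the anterior cortex the members were higher in blast, and the library scores fell into 2 sets. Blast library 8 stood at -0.61 and sham libraries 11, 13 and 15 at -0.32, -0.43 and -0.75, and the 6 others lay between 0.30 and 0.42. The 4 low libraries had counts for 16577 to 17845 genes against 18744 to 20748 in the others. The members took 0.417% to 0.516% of their counts against 0.745% to 0.855%, and their length slopes were 0.05 to 0.17 against -0.08 to -0.07. Without these 4 libraries, which leaves 4 blast and 2 sham, 52 members were higher and the median log2 fold change was 0.03 in place of 0.30. Complex IV then stood at 0.04 in place of 0.47, ATP synthase at 0.07 in place of 0.37, complex III at -0.001 in place of 0.37, complex I at 0.01 in place of 0.23 and complex II at -0.006 in place of 0.18.

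Ndufc1 was the 1 member of the anterior cortex with an unadjusted p under 0.05 by edgeR (4.32% of all genes passed that threshold, 1.88% higher and 2.43% lower). It stood at 20.4, 18.8, 21.4, 24.6 and 22.8 CPM in blast libraries 4, 8, 22, 88 and AC_666 and at 15.6, 12.9, 21.0, 13.8 and 20.2 CPM in sham libraries 11, 13, 14, 15 and 33, a log2 fold change of 0.37 ± 0.17 (edgeR adjusted p = 0.799). The sham values split, with libraries 14 and 33 inside the blast range and the other 3 below it. Cox5a split in the same way, at 56.8 CPM in blast library 8 and 87.5 to 112 CPM in the other blast libraries, and at 44.4, 45.4 and 39.5 CPM in sham libraries 13, 11 and 15 but 94.0 and 81.0 CPM in 14 and 33 (0.53 ± 0.25). Uqcrb (ENSRNOG00000024967), a subunit of complex III, had 0.72 ± 0.35, Ndufs5 of complex I 0.50 ± 0.29, Cox7a2l2 0.54 ± 0.32 and Atp5if1 0.29 ± 0.17. The other Uqcrb (ENSRNOG00000032204) has a model with no intron, and reads may be shared between the 2 identifiers. The authors' deposited table for this region gave 0.38 for the first and 0.07 for the other, so the value of Uqcrb is uncertain. Ndufa12 (0.76 ± 0.37) and Ndufa4l2 (0.57 ± 0.33), both under 13 CPM in all libraries, stood at -0.05 and -0.09 without the 4 low libraries.

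The count of members under an unadjusted p of 0.05 in the anterior cortex moved with single libraries. It was 31 without blast library 8, 14 without sham library 14 and 8 without sham library 33, where 4.66%, 6.29% and 3.19% of all genes were higher at that threshold in the same order. It was 0 without any 1 of blast libraries 22, 88 and AC_666 or of sham libraries 11, 13 and 15, where 0.902% to 1.36% of all genes were. The shares over all genes thus moved with the same libraries. Mitochondrial ribosomal proteins were higher in blast in 65 of 73 cases with a median of 0.25 and proteasome subunits in 27 of 37 with a median of 0.12. Markers of pericytes were lower in 11 of 14 cases (summed 309 to 446 CPM in blast and 352 to 559.5 CPM in sham), and their part in the result was not tested.

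**Figure D4:**
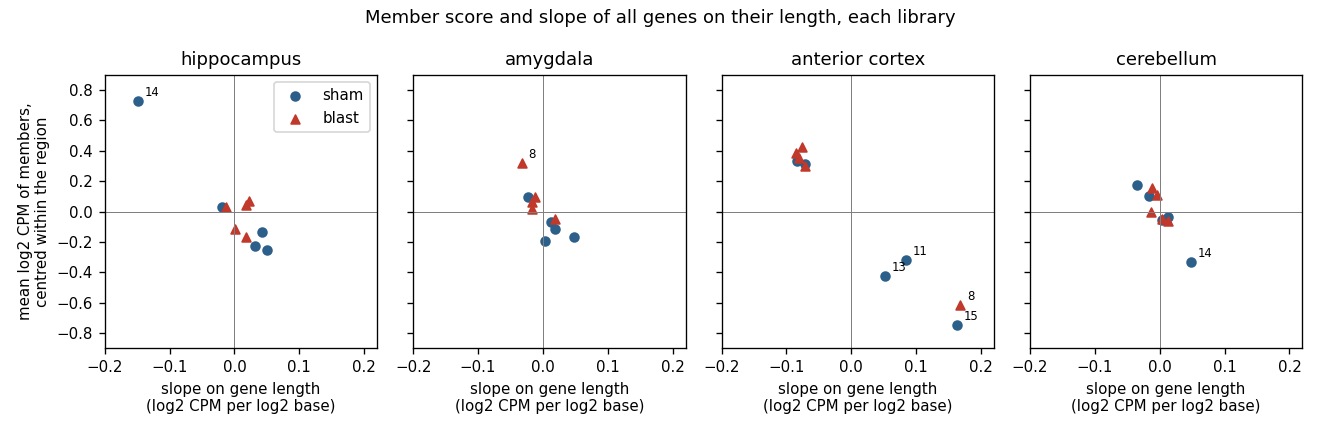
Member score of each library against the slope of log2 CPM on log2 gene length over all genes of that library, by region; libraries with a score beyond 0.3 from 0 carry their number except the 6 high ones of the anterior cortex. In the anterior cortex the 6 libraries with a negative slope, in which short genes stand higher, lie above the 4 with a positive slope, and sham library 14 has the lowest slope and highest score in the hippocampus and the highest slope and lowest score in the cerebellum.

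In the cerebellum the members were near 0, with medians of 0.07 in complex IV, 0.03 in complex III, 0.03 in complex I, 0.02 in ATP synthase and -0.005 in complex II. All 13 members of complex IV tested there were higher. Without sham library 14, whose member score was -0.33 against -0.06 to 0.17 in the other 9 libraries, the median was -0.04 and 19 members were higher in place of 57. Atp5pb, subunit b of the peripheral stalk that holds the F1 head, was the 1 member with an unadjusted p under 0.05 by edgeR (4.62% of all genes passed that threshold, 2.81% higher and 1.81% lower). It stood at 6.90, 5.25, 3.82, 8.08 and 2.49 CPM in blast libraries 4, 8, 22, 88 and Cer_666 and at 2.40, 3.20, 2.71, 2.55 and 2.48 CPM in sham libraries 11, 13, 14, 15 and 33, a log2 fold change of 1.00 ± 0.27 (edgeR adjusted p = 0.96). In blast library Cer_666 it lay inside the sham range, and the 4 other blast libraries lay above it. Its level is low, at 0.59 to 1.19 CPM per kilobase of gene length in sham libraries over regions. The medians of ATP synthase were 103 to 144 on that scale, and the value of Atp5pb is uncertain.

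Ndufc2 stood at 80.3 to 89.6 CPM in blast cerebellum and 66.1 to 86.3 CPM in sham (0.16 ± 0.07), so that its direction was that of the amygdala with a smaller value. Ndufa11 had 0.19 ± 0.10, Ndufa13 0.17 ± 0.11, Cox7a2l2 0.16 ± 0.10, Cox5b 0.23 ± 0.18 and Cox4i2 0.35 ± 0.17, and Atp5md, a small subunit of the membrane part of ATP synthase, -0.32 ± 0.26. Values of blast and sham libraries overlapped in each of them. The Atp5md model (ENSRNOG00000042869) runs from 89187167 to 89187474 on chromosome 10 with a gene length of 308 bases and so has no intron. It carries the name LOC100360002 in the cerebellum data, and its value is uncertain. Markers of fibroblasts and meninges were higher in blast in 14 of 14 cases (summed 667 to 1265 CPM in blast and 248 to 862 CPM in sham), and of ependyma in 7 of 7. Choroid plexus markers were higher in 10 of 10, with a median of 1.84 (summed 52.8 to 2782 CPM in blast and 48.6 to 1248 CPM in sham). Their part in the values of the members was not tested.

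Averaged over the 4 regions, 76 of 83 members were higher in blast and the median was 0.11, against 52.8% of all genes higher. The filter on low counts ran over all 40 libraries together here and kept Cox8b, which no regional test held. No member was called by limma with voom, which called 1 gene of 16378 (0.00611%). Unadjusted p-values under 0.05 were found for 4 members, all higher, against 4.10% of all genes higher and 4.26% lower. They were Uqcrb (ENSRNOG00000024967) at 0.33 ± 0.12, Ndufc2 at 0.24 ± 0.10, Cox5a at 0.23 ± 0.10 and Atp5mc1, 1 of the 3 genes for the c-ring, at 0.26 ± 0.11 (limma adjusted p = 0.478, 0.526, 0.546 and 0.566). Uqcr10 (0.27 ± 0.14) and Ndufa4 (0.19 ± 0.10) followed. Without the libraries of number 14 the count was 33, without number 8 it was 22 and without number 33 it was 8, where 9.16%, 6.91% and 5.17% of all genes were higher at that threshold. It was 2 without number 13 or 22, where 3.15% and 3.37% of all genes were. Without the 4 low anterior cortex libraries it was 0 and the median 0.04, and 2.59% of all genes were. The value of Uqcrb (ENSRNOG00000024967) is uncertain, as given above. In the authors' deposited tables the other Uqcrb (ENSRNOG00000032204) stood at -0.11 in the hippocampus, 0.09 in the amygdala, 0.07 in the anterior cortex and -0.05 in the cerebellum. The first stood at 0.03, 0.24, 0.38 and 0.02 in the same order.

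The test of whether blast effects differed among regions called no member and no gene of 16378 by edgeR (0%). At an unadjusted p under 0.05 by edgeR were 4.76% of all genes and, of the members, Ndufa1, Ndufc1 and Cox4i2, each with an edgeR adjusted p near 1. The opposite signs of the members in the hippocampus and the other regions were thus not told apart by this test. Ndufc1 stood at -0.36 ± 0.20 in the hippocampus, 0.02 ± 0.14 in the amygdala, 0.37 ± 0.17 in the anterior cortex and -0.01 ± 0.09 in the cerebellum. Ndufa1, a small membrane subunit of complex I, ran from 0 to 31.3 CPM over libraries. In the amygdala it stood at 3.49, 31.3, 0.139, 17.9 and 8.05 CPM in blast libraries 4, 8, 22, 88 and Amy_666 and at 28.1, 16.8, 10.3, 0 and 0 CPM in sham libraries 11, 14, 15, 33 and the unnumbered one. Its model is 213 bases long, and its values are uncertain.

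Within a group the members varied together. After removal of the group means the median correlation between 2 members over the 10 libraries of a region was 0.89 in the hippocampus, 0.84 in the anterior cortex, 0.72 in the cerebellum and 0.50 in the amygdala, over 3081 to 3321 pairs of members that share libraries and depth. From 89.9% to 97.4% of the pairs were positive. The median SD of a member within a group on the log2 scale was 0.33 in the hippocampus, 0.49 in the anterior cortex, 0.18 in the cerebellum and 0.16 in the amygdala, against 0.25, 0.34, 0.15 and 0.18 over all genes tested.

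Gene length went along with the size of the value among the members. In the amygdala the 41 shorter members (213 to 683 bases) had a median of 0.22 with 20 under an unadjusted p of 0.05 by edgeR, and the 41 longer ones (704 to 7359 bases) a median of 0.08 with 10. In the anterior cortex the medians were 0.40 and 0.18, in the cerebellum 0.04 and 0.02, and in the hippocampus -0.16 and -0.06. With the trend of each library on gene length removed, the amygdala median was 0.09, with 64 members higher and 25 under an unadjusted p of 0.05. At that threshold 3.50% of all amygdala genes were higher in this fit and 4.55% lower, and 49.4% were higher at any size. The anterior cortex then stood at 0.20, the hippocampus at -0.09 and the cerebellum at -0.002. Of all genes 49.9%, 38.4% and 40.8% were higher in these 3 fits in the same order. With the trend left in, the shares were 49.0% in the hippocampus and 51.1% in the cerebellum, so the removal moved all genes there.

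Levels between regions were compared in the sham libraries, over 15695 genes found in all 4 tables. CPM in this comparison are scaled over the sham libraries of all regions together and so differ slightly from those within a region. A difference between regions was called by edgeR for 39 of 82 members (47.6%) against 74.5% of all genes. Against the mean of hippocampus, amygdala and anterior cortex, 19 members (23.2%) were higher in the cerebellum and 4 lower, against 30.9% and 32.1% of all genes. By complex, 9 of 37 members of complex I were higher, 2 of 4 of complex II, 3 of 9 of complex III, 5 of 17 of ATP synthase and 0 of 15 of complex IV. The 19 had a median length of 1251 bases, against 600 bases in the 59 that were not called. All 13 genes of mitochondrial DNA were lower in the cerebellum, with a median log2 difference of -1.06.

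Ndufs1, the large iron-sulphur subunit that carries electrons through complex I, had the smallest p. It stood at 196, 201, 199, 199 and 203 CPM in cerebellum sham libraries 11, 13, 14, 15 and 33. Over the 15 forebrain sham libraries it ran from 118 to 147 CPM, so no library of these regions reached the cerebellum (0.59 ± 0.05, edgeR adjusted p = 3.17e-09). Atp5f1a, the alpha subunit of the F1 head, stood at 784, 790, 726, 833 and 739 CPM in the cerebellum and at 471 to 716 CPM elsewhere, highest in hippocampus library 14 (0.54 ± 0.07, edgeR adjusted p = 9.11e-07). Ndufs4, an accessory subunit of complex I, stood at 88.6 to 90.6 CPM in the cerebellum and 54.1 to 84.9 CPM elsewhere (0.38 ± 0.07, edgeR adjusted p = 7.54e-05).

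The lower members were Ndufa8, Atp5if1, Ndufa1 and Cox6b2. Ndufa8, an accessory subunit of complex I, stood at 72.8, 74.0, 54.5, 79.1 and 59.9 CPM in the cerebellum and at 70.4 to 180 CPM elsewhere (-0.67 ± 0.16, edgeR adjusted p = 0.00101). Only anterior cortex library 15 fell into the cerebellum range. The inhibitor Atp5if1 stood at 45.5 to 59.1 CPM in the cerebellum and 49.5 to 144 CPM elsewhere (-0.56 ± 0.15, edgeR adjusted p = 0.00262), with 3 anterior cortex libraries inside the cerebellum range. Ndufa1 is at 0 to 0.971 CPM in the cerebellum and 0 to 31.2 CPM elsewhere (-4.88 ± 1.54, edgeR adjusted p = 0.00925), with the uncertainty given above. Over blast and sham cerebellum libraries together, scaled within the region, Ndufa1 ran from 0 to 27.2 CPM, while its highest sham value was 1.07 CPM. The low level in the cerebellum thus holds for the sham libraries only. The counts depend on the sham libraries used. Without number 14, 36 members were higher and 3 lower, and the difference between regions was called for 56. It was called for 17 without number 13, 19 without 11 and 21 without 15. Without anterior cortex libraries 11, 13 and 15, 16 members were higher and 7 lower, and 25 differed between regions. With the length trend removed, 37 were higher and 4 lower. The shares of all genes called in these other sham fits are not given here. Whether the changes in count are particular to the members was thus not tested.

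The upstream sequence of Ndufs1 is shown as the member with the clearest regional difference, from RefSeq on GRCr8 at chr9:72073606-72073855 (minus strand), 5′ to 3′ on the coding strand. Capitals mark the match to the ETS motif CCGGAAG, read here on the opposite strand, which begins 199 bases before the start.
Ndufs1: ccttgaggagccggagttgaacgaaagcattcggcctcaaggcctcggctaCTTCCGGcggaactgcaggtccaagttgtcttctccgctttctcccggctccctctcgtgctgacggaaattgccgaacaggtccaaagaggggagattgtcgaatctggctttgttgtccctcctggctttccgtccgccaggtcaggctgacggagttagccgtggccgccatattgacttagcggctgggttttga
The ETS motif is in 8.75% of all promoter windows, as given above.

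Levels between members were compared per gene length, as CPM per kilobase (CPM per kb) in sham libraries. Atp5f1b, the catalytic beta subunit of the F1 head, was highest in every region, at 557 ± 84.7 CPM per kb (SD, n = 5) in the hippocampus, 530.2 ± 29.3 in the amygdala, 483 ± 82.3 in the anterior cortex and 649 ± 50.6 in the cerebellum. Cox4i1, the ubiquitous form of subunit IV of the oxidase, came next at 422 to 514 CPM per kb, and the order of these neighbours does not exceed their SD in the hippocampus and the anterior cortex. Cox6a1, Cox8a, Cox6c and Atp5f1a filled the next 4 places in each region. Medians by complex were 103 to 144 CPM per kb for ATP synthase, 95.9 to 154 for complex IV, 71.3 to 94.2 for complex III, 80.4 to 103 for complex II and 54.6 to 80.3 for complex I, over regions.

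Isoforms known from heart, muscle or other tissues were low. Cox4i2, a form induced at low oxygen and known from lung, stood at 1.61 to 2.31 CPM per kb over regions. Cox6a2, the heart and muscle form of subunit VIa, was at 0.371 to 1.74 CPM per kb against 332 to 481 for Cox6a1, and Cox8b was at 0.621 to 2.87 against 240.2 to 431 for Cox8a. Cox6b2, known from testis, was at 0.732 to 2.85 CPM per kb against 97.9 to 173 for Cox6b1 (ENSRNOG00000024309). Cox7a1 and Cox7b2 were at or under 0.398 CPM per kb in all regions, against 107 to 157 for Cox7a2l2 and 90.0 to 151 for Cox7b. Ndufa4l2 stood at 2.28 to 3.51 CPM per kb and Ndufa4 at 108 to 210. The 3 genes of the c-ring, which code for the same mature protein, were of like level, with Atp5mc3 highest in all regions (103 to 216), Atp5mc2 next (95.4 to 149) and Atp5mc1 lowest (61.7 to 114).

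**Figure D5:**
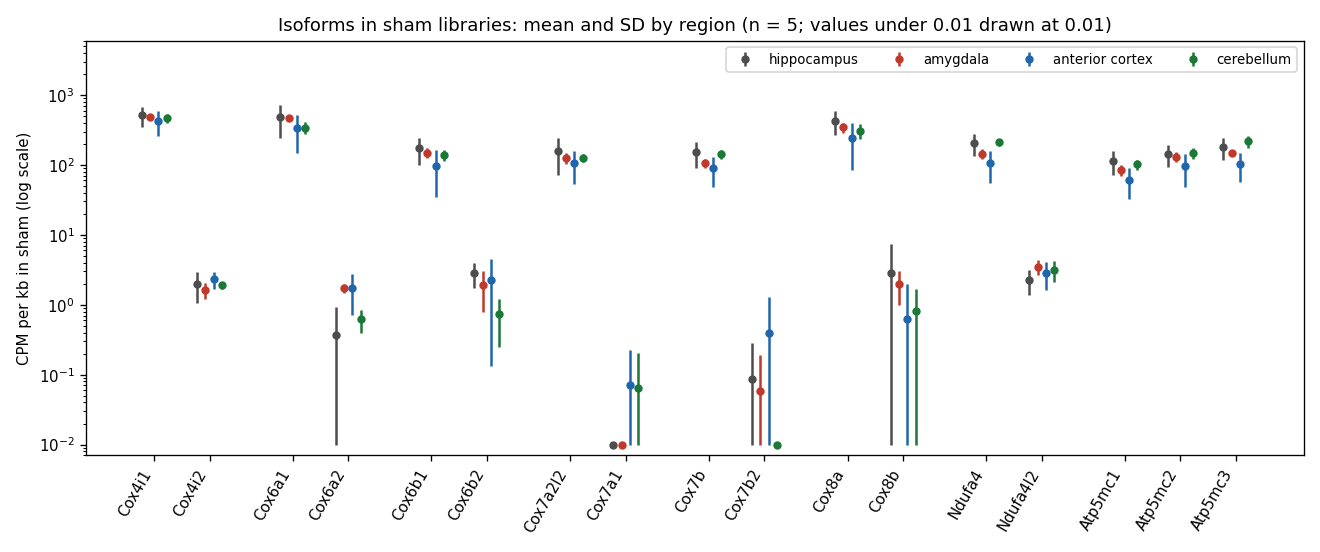
CPM per kilobase of isoform genes in sham libraries on a log scale, mean and SD by region (n = 5); values and lower SD bars under 0.01 are drawn at 0.01. The ubiquitous forms lie above 60 CPM per kb and the alternative forms Cox4i2, Cox6a2, Cox6b2, Cox7a1, Cox7b2, Cox8b and Ndufa4l2 under 4.

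Of these alternative forms Cox6b2 and Cox4i2 were higher in the blast amygdala at an unadjusted p under 0.05 by edgeR. Cox6b2 stood at 2.32, 2.24, 1.603, 1.21 and 2.24 CPM in blast libraries 4, 8, 22, 88 and Amy_666 and at 1.33, 0.155, 0.714, 1.52 and 0.833 CPM in sham libraries 11, 14, 15, 33 and the unnumbered one (1.06 ± 0.40). Cox4i2 stood at 1.598 to 3.65 CPM in blast and 1.32 to 2.28 CPM in sham (0.60 ± 0.26). Both are low, and blast library 88 lay within the sham range in each. In the hippocampus Cox4i2 had the opposite sign (-0.55 ± 0.36).

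The authors' deposited table for the amygdala gave 30 members a p-value under 0.05, all higher in blast. This count rests on the same libraries as the edgeR count and is no separate evidence. Shares over all genes of the deposited tables are not given here. Its smallest adjusted p among the 25 members that have one was 0.0981, for Ndufa4. The authors' deposited table gave Ndufc2 a log2 fold change of 0.31 in the amygdala with no adjusted p. In the authors' deposited tables of the other regions 0 members of the hippocampus, 4 of the anterior cortex and 1 of the cerebellum had a p-value under 0.05, and the adjusted p was under 0.05 for 0 members in all 4.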

How the data were processed

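Total RNA of 40 libraries was made into libraries with an NEBNext Ultra kit, per the labels' protocols. The submitters' processing notes name CASAVA; aligner, counter and build: not given in the sources used here. The deposited tables hold, per the file headers, read counts of each Ensembl gene, log2 fold changes, p-values with adjusted p-values and other columns such as gene length, 1 table a region. The 80 columns of normalized values were not used. Genes were joined by identifier; 26 members are named otherwise in the cerebellum table.

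Counts were analysed with edgeR 4.0.16 (filterByExpr, TMM, two-sided quasi-likelihood F tests, Benjamini-Hochberg adjustment over all genes, calls at an adjusted p under 0.05), and the mean over regions with limma 3.58.1 (voom, title number as random block). DESeq2 1.42.0 was an alternative. The SE of an edgeR value is the log2 fold change over the root of F. The members and lists were chosen with earlier results of these data known. Members named are those of smallest p, 8 in each region, 6 for the mean over regions, 6 for the difference between regions, and 3 higher and 3 lower in the cerebellum, with isoforms by name; groupings by role and length and other members named were chosen after values were seen. No libraries were duplicates (smallest chi-square per degree of freedom 6.30). Library totals of 11268097 to 37128383 counts bound counting error, and errors come from replicates. In simulated amygdala data over 15157 genes edgeR recovered 92% of 100 genes changed 2-fold and 64% of those changed 1.5-fold; in the anterior cortex (14683 genes) 46% and 6%, in the hippocampus (14889) 77% and 27%, and in the cerebellum (14640) 96% and 75%. In the simulation each gene was drawn independently, and only genes above a minimum mean count were changed. The members varied together and their median fold changes were smaller than those simulated, so these shares do not describe the members. The alternatives were another normalization, DESeq2, no filter, the length trend removed and each library left out.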

Additional observations from a re-analysis of the deposited data

Results flagged for a closer look

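Of 190 groups of 5 libraries examined (member and complex scores, and CPM of the named members), 27 held a library far from the other 4 by the ratio of its gap to the range. Chance gives about 1 in 20 such groups, and the members share libraries, so the groups are not independent. Scores are mean log2 CPM centred within the region.

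Sham library 14 of the hippocampus stood highest in the score of all members (0.73, next 0.03), of complex I (0.64), complex II (0.44) and complex III (0.69). In the same group it stood highest in Atp5pb (6.11 CPM, next 2.03), Cox7a2l2 (145, next 67.4), Ndufa6 (73.4, next 40.7), Atp5if1 (144, next 79.8), Cox7b (121, next 69.8), Ndufc2 (75.8, next 41.5), Cox5a (167, next 92.4), Ndufa4 (260, next 149), Uqcr10 (81.1, next 44.0), Atp5f1a (714, next 542) and Ndufa8 (179.8, next 97.7). Sham library 14 of the amygdala stood lowest in complex IV (-0.45, next -0.13).

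Blast library 8 of the anterior cortex stood lowest in the score of all members (-0.61, next 0.30), of complex I (-0.55), complex II (-0.22), complex III (-0.44), complex IV (-0.86) and ATP synthase (-0.73). It also stood lowest in Uqcrb (ENSRNOG00000024967) (7.34 CPM, next 14.5) and Cox7a2l2 (33.6, next 73.6). In the hippocampus blast library 88 stood highest in Cox7b (69.1 CPM, next 60.9) and in Ndufa1 (2.62, next 0.193), and in the cerebellum sham library 13 in Ndufa1 (1.07, next 0.283).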

How the results depend on the processing

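Of 680 values of named members under alternatives 671 kept their direction or their side of the threshold, 8 changed sign and 1 passed it. For the difference of blast effects among regions the value was a p-value, which has no direction. No member was called for blast in the main fits, so staying on the same side of the threshold is weak evidence of stability. With 1 hippocampus library left out Atp5if1 ran from -0.28 to 0.054, Atp5pb from -0.92 to 0.032, Cox7a2l2 from -0.47 to 0.058, Cox7b from -0.32 to 0.051, Ndufa3 from -0.43 to 0.0079 and Ndufa6 from -0.30 to 0.051, each positive without sham library 14. Without the 4 low anterior cortex libraries Ndufa12 stood at -0.052 and Ndufa4l2 at -0.087. By DESeq2 1 member, Ndufc2, was called in the amygdala, and the share of all genes called is not given here. For the counts that follow, brackets give the share of all genes at that threshold and in that direction in the same fit. Members higher at an unadjusted p under 0.05 in the anterior cortex numbered 0 with DESeq2 size factors (1.75%) and 4 by DESeq2 (2.27%). They numbered 2 without a filter (2.38%), 2 with the length trend removed (2.20%) and 2 without the 4 low libraries (1.37%). With 1 library left out they numbered 0 to 31 (0.902% to 6.29%). In the cerebellum they numbered 2 by DESeq2 (2.62%), 3 without a filter (2.68%) and 2 with the length trend removed (2.28%). With 1 cerebellum library left out 1 to 5 were higher (2.14% to 3.54%) and 0 to 1 lower (1.51% to 2.77%). In the hippocampus the lower members numbered 1 without a filter (1.16%) and 1 with the length trend removed (1.71%). They numbered 2 without the 3 libraries with much choroid plexus RNA (0.738%). With 1 hippocampus library left out 0 to 1 were lower (0.631% to 2.09%) and 0 to 7 higher (0.631% to 3.25%). In the amygdala the higher members numbered 15 to 36 with 1 library left out (2.96% to 6.21%), and 24 without the unnumbered library (3.68%). Medians with 1 library left out ran from -0.18 to 0.10 in the hippocampus, 0.09 to 0.17 in the amygdala, 0.18 to 0.45 in the anterior cortex, -0.04 to 0.08 in the cerebellum and 0.06 to 0.16 for the mean over regions. In sham, members that differed between cerebellum and forebrain numbered 41 (37 higher) with the length trend removed and 18 to 39 (13 to 36 higher, 3 to 5 lower) with 1 number left out; members that differed between regions numbered 25 (7 lower in the cerebellum) without 3 anterior cortex libraries and 17 to 56 with 1 number left out. The cause of these changes was not tested, and the shares of all genes called in the sham alternatives are not given here. Of 57 pairs of libraries with the same number 19 had deviations that correlated over 0.1 (median 0.07, from -0.15 to 0.44), 5 of the 6 pairs of number 88 among them, and for each number the median correlation with other numbers ranged from -0.03 to 0.000912; whether the numbers pair the samples was not settled. The count of members called for the mean over regions was 0 with and without the replicate block, and with it as a block in the sham comparison 22 differed (18 higher, 4 lower) and 34 between regions. The anterior cortex and length alternatives in sham were chosen after seeing the data.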
